A study of Ovis aries with 57 samples.

Results

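The luminal epithelium (LE) is the sheet of cells that lines the uterine cavity and is the maternal surface that the conceptus, the embryo with its membranes, first touches. Its RNA was compared in pregnant sheep (Ovis aries) between day 20 of pregnancy (4 libraries, numbered 17, 19, 21 and 23) and day 16 (4 libraries, numbered 25, 27, 29 and 31). These are all libraries whose labels give LE as the cell type and day 20 or day 16 as the day of pregnancy, 8 of the 57 libraries of the series. The others are LE of days 10, 12 and 14, glandular epithelium (GE) of the same 5 days, and conceptuses, with 4 LE and 4 GE libraries a day. Frozen uterine pieces from beside the ovulating ovary were sectioned and stained, and LE and GE of an animal were recognised by eye, and cut out by laser from the same slide. The small RNA yield was amplified before sequencing, which adds error that cannot be separated here from that between animals. All ewes of both days were pregnant, and the labels used here give neither a breed nor a treatment. The labels do not tie a library to an animal, so p-values measure the spread between these samples, which may be partly technical.

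In sheep the conceptus elongates into a filament that lies against the LE, adheres to it and implants without deep invasion of the uterine wall. During elongation the trophectoderm secretes interferon tau, which acts on a uterus primed by progesterone, and LE and glands respond with secreted proteins, nutrient carriers and prostaglandins on which the conceptus depends. In the attachment period that follows, binucleate trophoblast cells fuse with LE cells and the luminal surface is partly remodelled. Day 16 falls at the end of elongation and the onset of adhesion, and day 20 lies within attachment.

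Day 20 libraries held 12.83 to 26.01 M mapped reads and 3.24 to 6.68 M exon reads (M, mega), against 15.73 to 22.24 M mapped reads and 3.97 to 7.59 M exon reads in day 16 libraries. Mitochondrial genes took 14.26 to 24.96% of the exon reads on day 20 and 10.02 to 20.27% on day 16. The labelled cell type was checked with LGALS15, a galectin secreted by the ruminant LE, which had 7844, 1293, 13856 and 11036 RPKM on day 20 and 21207, 12270.2, 42110.1 and 32680.5 RPKM on day 16 in LE, against means of 0.73 ± 0.68 RPKM on day 20 and 5.505 ± 9.52 RPKM on day 16 in GE (SD, n = 4 each). RPKM is a gene's exon reads scaled by its exon length and by the mapped reads of the library. Values are given throughout in the order of libraries 17, 19, 21 and 23 for day 20 and 25, 27, 29 and 31 for day 16.

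The library labelled day 20 replicate 19 stood apart from the other day 20 libraries, and its values resembled earlier days. Over 9203 genes on the log2(RPKM + 1) scale, its Pearson correlation was 0.93 with the day 12 mean and 0.903 with the day 10 mean, but 0.793 with the mean of the other 3 day 20 libraries. Libraries 17, 21 and 23 correlated at 0.848 to 0.893 with the mean of the other day 20 libraries and at 0.744 to 0.79 with the day 12 mean. All 4 day 16 libraries were closest to their own day. These correlations run across genes, which are not independent replicates. Library 19 held 43 genes at 10 RPKM or more that were at least 2 log2 units above all of the other 7 libraries, and 42 of these reached 0.5 times that level in a day 10 or day 12 LE library. Libraries 17, 21 and 23 held 5, 8 and 8 such genes, of which 0, 0 and 0 did so. The copper carrier ceruloplasmin, CP, is an example with 0.34, 224, 15.7 and 22.3 RPKM on day 20, against 2.46, 0.79, 1.61 and 0.86 RPKM on day 16, and its mean was 186 RPKM on day 10 and 225 RPKM on day 12. The intermediate filament gene VIM had 4.12, 264, 1.29 and 28.2 RPKM on day 20, against 30.9, 8.86, 15.2 and 32.7 RPKM on day 16, and its day 12 mean was 181 RPKM. The cause was not tested. Results are given with all libraries, and without library 19 where the call or the size differs.

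**Figure D1:**
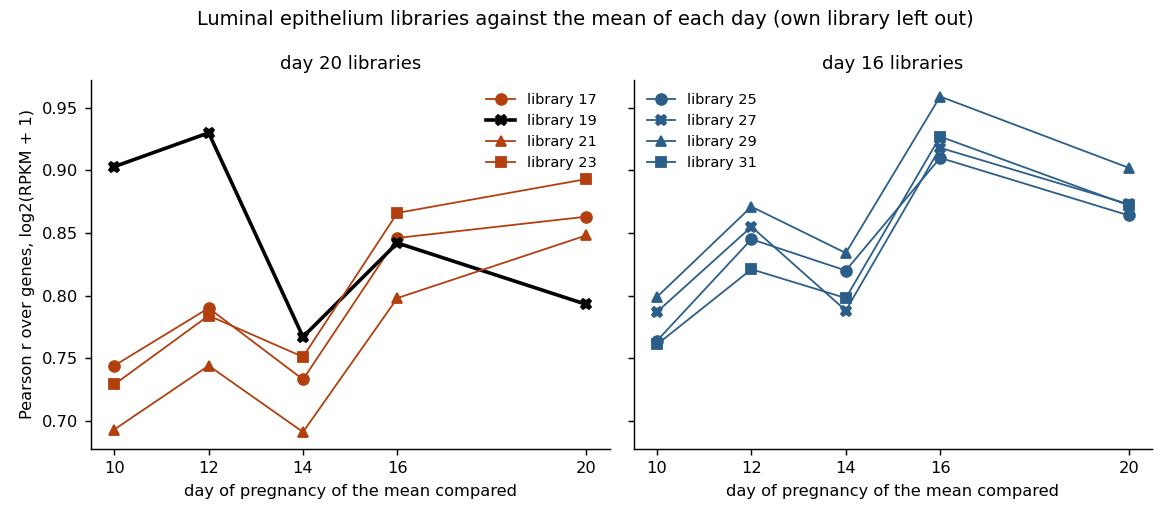
Pearson correlation (vertical axis) of each day 20 library (left panel) and each day 16 library (right panel) with the mean of LE libraries of each day of pregnancy (horizontal axis), over 9203 genes, with the library itself left out of its own day's mean. Library 19 (black line) peaks at day 12 with 0.93 and stands at 0.793 for day 20, while the other day 20 libraries and all day 16 libraries peak at their own day.

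Day 20 libraries were less alike among themselves than day 16 libraries. Pairs of day 20 libraries correlated at 0.721 to 0.843, pairs of day 16 libraries at 0.867 to 0.929, and pairs of a day 20 and a day 16 library at 0.756 to 0.857. The median SD of a gene on the log2 scale was 0.69 on day 20 and 0.50 on day 16, and 6372 of the 9203 genes (69.2%) had the larger SD on day 20.

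Genes were tested with limma on log2(RPKM + 1), and a gene is said to rise or fall where its Benjamini-Hochberg adjusted p over all genes tested was under 0.05. With all 8 libraries, 24 of 9203 genes (0.261%) passed, 10 that rose (0.109%) and 14 that fell (0.152%). In captured tissue, fewer cells of a type and less RNA per cell cannot be told apart. The unadjusted p was under 0.05 for 825 genes (8.96%), 349 higher on day 20 (3.79%) and 476 lower (5.17%). In 609 genes (6.62%) the 4 libraries of one day did not overlap those of the other, 242 with day 20 higher (2.63%) and 367 with day 20 lower (3.99%). Without library 19 the test called 123 of 9123 genes (1.35%), of which 79 rose (0.866%) and 44 fell (0.482%). Leaving out library 21 gave 9 calls, library 25 gave 10, library 29 gave 13 and library 27 gave 14. Tests on reads recovered from the RPKM values gave other counts. With all libraries edgeR called 1 of 10720 genes (0.00933%) and DESeq2 called 194 of 18622 (1.04%), 141 of them higher (0.757%). Without library 19 edgeR called 37 of 11258 (0.329%) and DESeq2 339 of 18612 (1.82%). Counts within the gene lists below are to be read beside these shares over all genes. At 0.261% of genes called by limma, 0 calls in a list are no result particular to that list.

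Of the 24 genes called with all libraries, 22 were among the 123 called without library 19. The other 2, ABCG1 and ABHD6, no longer reached 1 RPKM in 4 libraries and so were not tested. In 55 of the 71 further rises library 19 lay within or below the day 16 range, and in 16 of the 30 further falls it lay within or above it. These further genes were called only once library 19 was left out, so its position in them is partly set by how they were chosen. The day 20 values of libraries 17, 21 and 23 lay above all 16 earlier LE libraries in 56 of the 79 rises, and below all 16 in 15 of the 44 falls. These genes were called by their difference from day 16, which is part of the same comparison. The same count was not made over all genes tested, so neither count can be read as an excess. Genes named from the calls without library 19 were chosen after their values were seen, unless they belong to a list.

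Among the genes that fell with all libraries, the largest fall was that of CRYGS, a crystallin known as a structural protein of the eye lens. CRYGS had 12.9, 0, 3.51 and 29.3 RPKM on day 20, against 193, 222, 293 and 451 RPKM on day 16. All day 20 values lay below all day 16 values, the change was -5.38 on the log2 scale (SE 1.11, adjusted p 0.0345), and it was -4.48 without library 19 (adjusted p 0.0451). The call of CRYGS held in 8 of 27 other settings. It was lost in the others, among them a pseudocount of 0.1 (adjusted p 0.184), no filter (0.111), edgeR (0.278) and DESeq2 (0.0519), and the fits without library 17 (0.0527), 21 (0.144), 25 (0.0908), 27 (0.0693), 29 (0.101) or 31 (0.11). Its mean on days 10, 12 and 14 was 0.02, 2.96 and 40.8 RPKM, so that day 16 was the highest of the 5 days.

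The complement regulator CD55 (decay accelerating factor), a membrane protein that dismantles complement convertases on the cell's own surface, had 0.04, 0, 0.59 and 11.3 RPKM on day 20, against 177, 92.9, 69.0 and 37.8 RPKM on day 16. Only library 23 kept more than 1 RPKM on day 20, and the groups did not overlap. The change was -5.27 (SE 1.01, adjusted p 0.0206), and -4.91 without library 19 (adjusted p 0.0241). The call held in 14 of 27 other settings of the analysis. CD59, which blocks the terminal pore of the same cascade, had 42.6, 43.99, 11.2 and 26.6 RPKM on day 20, against 3.02, 4.91, 5.86 and 6.59 RPKM on day 16. Here every day 20 library lay above every day 16 library, but the test did not call it (log2 change 2.27, SE 0.85, adjusted p 0.351). Of 10 complement genes tested, 1 fell, 0 rose, and the median log2 change was 0.21, beside -0.03 over all genes.

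The citrate carrier SLC13A5, which brings tricarboxylates into cells with sodium, had 0.50, 0.21, 0.03 and 1.48 RPKM on day 20, against 15.3, 8.36, 11.1 and 27.8 RPKM on day 16. The day 16 level was itself a peak within the series, since means were 3.46, 0.11 and 0.31 RPKM on days 10, 12 and 14. Its log2 change was -3.37 (SE 0.49, adjusted p 0.00444), it was called in 25 of 27 other settings, and without library 19 it was -3.28 (adjusted p 0.00153). KIAA1551, whose product has few assigned roles, was abundant on both days, with 51.9, 63.4, 21.0 and 33.7 RPKM on day 20, against 131, 198, 210.1 and 269 RPKM on day 16. It fell by 2.29 on the log2 scale (SE 0.41, adjusted p 0.0112) with no overlap between the days. These 2 genes and CYP26A1 were also the 3 that the authors' deposited table put under an FDR of 0.05, out of 25174 features (0.0119%), with signed folds of -23.13 for SLC13A5, -4.72 for KIAA1551 and 94.7 for CYP26A1 there.

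Several low genes that stayed at 2 RPKM or less in all LE libraries of days 10 to 14 peaked on day 16 and were at 1 RPKM or less on day 20. PRRG3, a membrane protein with a vitamin K dependent Gla domain, had 0, 0, 0.05 and 0.54 RPKM on day 20, against 2.50, 7.97, 5.51 and 4.58 RPKM on day 16, and it fell by 2.37 on the log2 scale (SE 0.36, adjusted p 0.00444). CALB2 (calretinin, a calcium buffer) had 0, 0.06, 0.03 and 0.25 RPKM on day 20, against 5.90, 1.29, 1.71 and 2.31 RPKM on day 16 and fell by 1.68 (SE 0.35, adjusted p 0.0391). GCHFR, which restrains the making of tetrahydrobiopterin, had 0.85, 0, 0 and 0.61 RPKM on day 20, against 6.78, 3.44, 2.99 and 3.70 RPKM on day 16 (log2 change -1.94, SE 0.36, adjusted p 0.0143). In none of these did the days overlap. PRRG3 was called in 20 of 26 other settings that tested it, GCHFR in 13 of 26 and CALB2 in 7 of 26.

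PPP1R14D, an inhibitor of protein phosphatase 1, had 3.69, 0.53, 0.07 and 1.33 RPKM on day 20, against 7.61, 8.39, 4.23 and 22.2 RPKM on day 16 (log2 change -2.27, SE 0.47, adjusted p 0.0351), and its lowest day 16 value was close to its highest day 20 value. The feature ENSOARG00000005764, described in the deposited table as stathmin 1, a microtubule destabiliser, had 0, 0, 0 and 0.23 RPKM on day 20, against 9.54, 1.14, 5.71 and 6.67 RPKM on day 16 (log2 change -2.47, SE 0.40, adjusted p 0.00542). ENSOARG00000005880, described as LY6G6D of the lymphocyte antigen 6 complex, had 0, 0.30, 0.89 and 0.56 RPKM on day 20, against 2.03, 3.47, 5.58 and 12.8 RPKM on day 16 (log2 change -2.08, SE 0.40, adjusted p 0.0206). Both separated the days without overlap, with day 20 the lower. The rest of the falls were of 4 features that the deposited tables give only as Ensembl identifiers without a name.

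**Figure D2:**
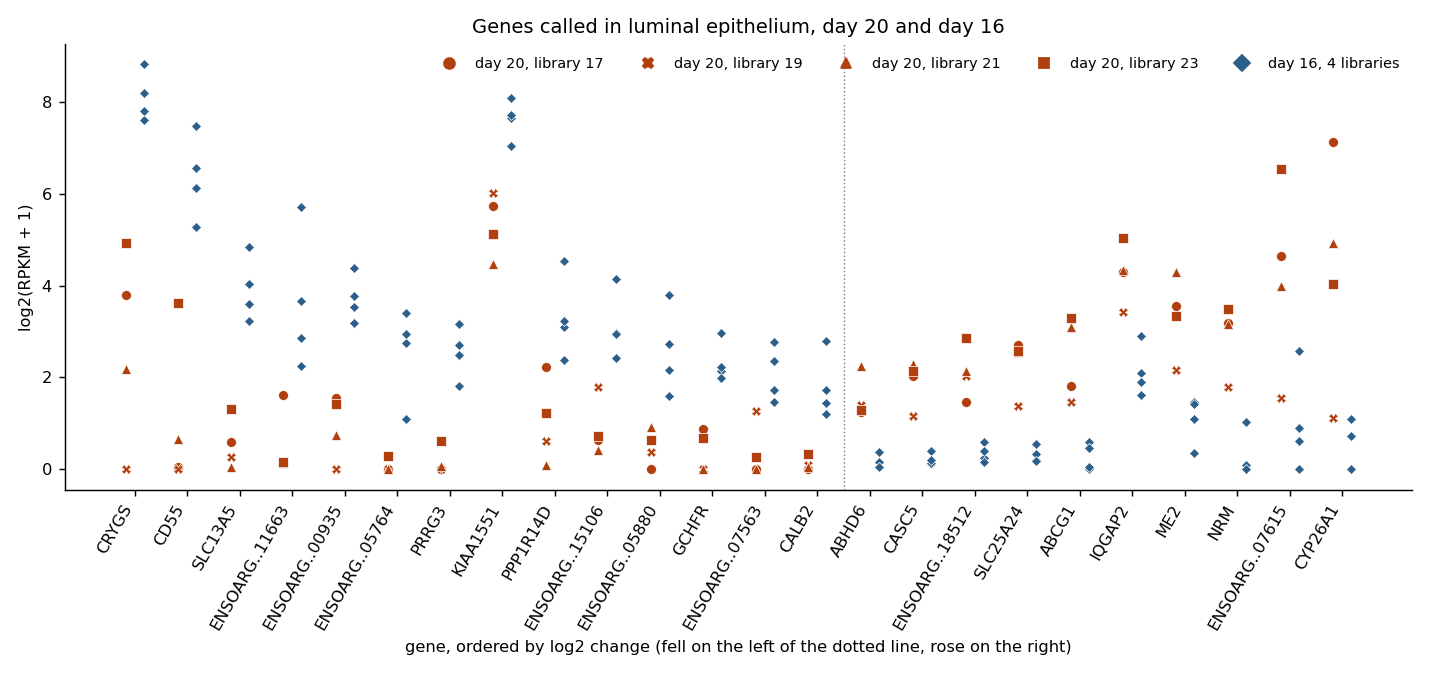
Each library's log2(RPKM + 1) (vertical axis) for the 24 genes called between days (horizontal axis), with day 20 libraries in orange on the left of each gene and day 16 libraries in blue on its right. The 14 genes left of the dotted line fell and the 10 right of it rose, and library 19 (crosses) is the lowest day 20 library in most of the rises.

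The gene with the largest rise was CYP26A1, which encodes a cytochrome P450 that oxidises and so clears retinoic acid, the active form of vitamin A. CYP26A1 had 138, 1.16, 29.4 and 15.3 RPKM on day 20, against 0.65, 0, 0 and 1.13 RPKM on day 16. Library 17 was the highest, and library 19 only just exceeded the highest day 16 library. The change was 3.84 (SE 0.71, adjusted p 0.0143) with all libraries and 4.90 without library 19 (SE 0.50, adjusted p 1.66e-05). No LE library of days 10 to 14 reached 1 RPKM, and in all GE libraries of days 16 and 20 the gene is listed at 0.

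NRM (nurim, a protein of the inner nuclear membrane) had 8.07, 2.48, 7.92 and 10.3 RPKM on day 20, against 0, 0.07, 1.05 and 0 RPKM on day 16, with a log2 change of 2.63 (SE 0.43, adjusted p 0.00542). IQGAP2, a scaffold that binds actin and small GTPases, had 18.7, 9.78, 19.2 and 31.7 RPKM on day 20, against 3.25, 2.74, 2.09 and 6.44 RPKM on day 16 (log2 change 2.15, SE 0.44, adjusted p 0.0345). ME2, the mitochondrial malic enzyme that makes pyruvate from malate, had 10.8, 3.49, 18.5 and 9.07 RPKM on day 20, against 1.78, 1.69, 1.15 and 0.28 RPKM on day 16 (log2 change 2.25, SE 0.46, adjusted p 0.0345). All 3 genes were higher in every day 20 library, and library 19 was the lowest of them each time. NRM was called in 19 of 26 other settings, IQGAP2 in 15 of 27 and ME2 in 11 of 27.

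SLC25A24, a mitochondrial carrier that exchanges ATP-magnesium for phosphate, had 5.57, 1.58, 4.85 and 4.96 RPKM on day 20, against 0.15, 0.46, 0.25 and 0.13 RPKM on day 16 (log2 change 1.99, SE 0.35, adjusted p 0.0112). The sterol exporter ABCG1 had 2.50, 1.74, 7.55 and 8.75 RPKM on day 20, against 0, 0.03, 0.51 and 0.38 RPKM on day 16 (log2 change 2.13, SE 0.36, adjusted p 0.00922). CASC5 (KNL1, a kinetochore scaffold) had 3.08, 1.24, 3.90 and 3.40 RPKM on day 20, against 0.31, 0.08, 0.10 and 0.15 RPKM on day 16 (log2 change 1.70, SE 0.36, adjusted p 0.0404). None of these reached 1 RPKM in a day 16 library, and all did in each day 20 library. For ABCG1 this was set by the filter, which asks for 1 RPKM in at least 4 LE libraries. ABCG1 passed it only through the day 20 libraries. ABHD6, a lipase that degrades monoacylglycerols, had 1.39, 1.64, 3.72 and 1.45 RPKM on day 20, against 0.29, 0.03, 0.11 and 0.03 RPKM on day 16 (log2 change 1.40, SE 0.30, adjusted p 0.0459). It too passed the filter only through the day 20 libraries, so its separation between the days at 1 RPKM is no further evidence. The features ENSOARG00000007615 and ENSOARG00000018512, which have no name in the tables, complete the 10 rises. ENSOARG00000007615 had 24.1, 1.95, 14.8 and 91.5 RPKM on day 20, against 0, 0.53, 0.87 and 4.94 RPKM on day 16 (log2 change 3.16, SE 0.68, adjusted p 0.0459).

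Retinoid genes were called in both directions without library 19. Of 37 listed genes, 33 are in the table and 16 were expressed enough to be tested, of which 1 rose and 0 fell with all libraries. Without library 19, CYP26A1 again rose and 2 genes fell, CYP26B1 and DHRS3. The median log2 change of the 16 genes was -0.35, beside -0.03 over all genes. CYP26B1, the other main retinoic acid hydroxylase of the family, had 0.41, 21.0, 0.01 and 14.9 RPKM on day 20, against 49.0, 42.1, 37.5 and 53.1 RPKM on day 16. No day 20 library reached the lowest day 16 library, but libraries 19 and 23 kept more than 10 RPKM while libraries 17 and 21 held less than 1 RPKM. It was not called with all libraries (log2 change -3.29, SE 0.83, adjusted p 0.0959) and fell by 4.03 without library 19 (SE 0.81, adjusted p 0.0107). DHRS3, which reduces retinaldehyde back to retinol, had 1.82, 2.23, 0 and 0 RPKM on day 20, against 35.1, 4.19, 9.86 and 6.97 RPKM on day 16, with an adjusted p of 0.0525 with all libraries and 0.0157 without library 19 (log2 changes -2.70 and -2.997).

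RDH10, which oxidises retinol to retinaldehyde, had 4.30, 85.8, 9.56 and 45.7 RPKM on day 20, against 9.04, 3.18, 3.04 and 3.22 RPKM on day 16. Libraries 19 and 23 were high, library 21 barely exceeded the highest day 16 library, library 17 lay within the day 16 range, and it was not called. ALDH1A1, which makes retinoic acid from retinaldehyde, had 246, 72.3, 443 and 869 RPKM on day 20, against 267, 416, 352 and 425 RPKM on day 16, and the serum retinol carrier RBP4 had 70.6, 134, 54.5 and 171 RPKM on day 20, against 640.2, 42.3, 68.6 and 14.8 RPKM on day 16. For both genes the days overlapped widely. DHRS9, another retinol dehydrogenase, had 0, 0.07, 9.49 and 7.63 RPKM on day 20, against 0, 0, 0 and 0.04 RPKM on day 16 and was too low to be tested by limma, but DESeq2 on the recovered reads called it higher, as it did CYP26A1.

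**Figure D3:**
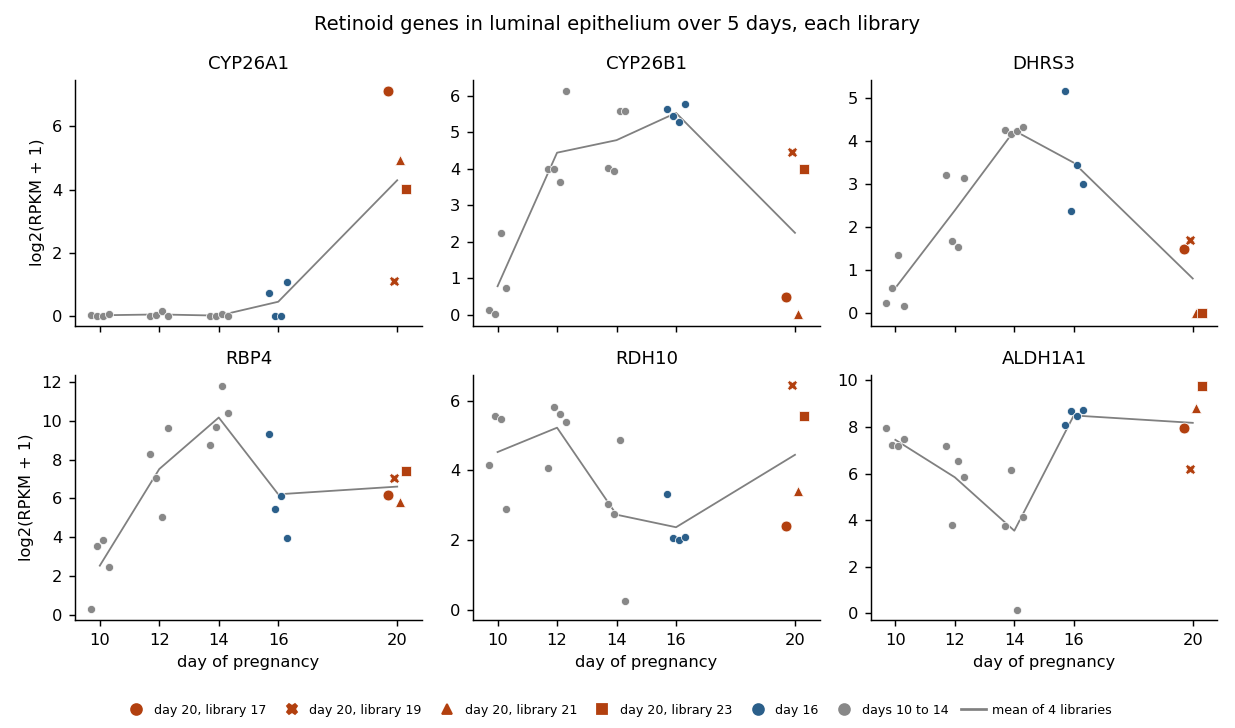
Level of 6 retinoid genes in LE as log2(RPKM + 1) (vertical axes) by day of pregnancy (horizontal axes), 1 point per library and a grey line through the mean of 4 libraries. CYP26A1 is near 0 until day 16 and high in 3 of 4 libraries on day 20, while CYP26B1 and DHRS3 lie below their day 16 libraries on day 20.

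Products of the LE that mark elongation under progesterone and interferon tau had a negative log2 change in 13 of 21 genes tested, but none fell by the test. The median log2 change over all genes tested was -0.03, so negative values were the more common there too. The 13 of 21 is therefore not read as a decline of the list. Of 28 listed genes, 0 were called by limma with all libraries, 3 had an unadjusted p under 0.05 in the lower direction and 1 in the higher, and the median log2 change was -0.36. Without library 19, limma called 1, SLC7A2, which rose, the unadjusted p was under 0.05 for 2 in the lower direction and 4 in the higher, and the median was -0.49. DESeq2 called 2 of 24 higher, the protease gene CTSL and the peptide gene GRP, and edgeR called 0. CTSL (cathepsin L) had 72.6, 6.16, 4.46 and 49.5 RPKM on day 20, against 6.21, 3.02, 3.53 and 1.49 RPKM on day 16, and the day 20 conceptuses held 339.7 to 1059.7 RPKM. LGALS15, given above, was higher in 3 day 16 libraries than in any day 20 library, while library 27 lay within the day 20 range, and its log2 change was -1.96 (SE 1.07, adjusted p 0.63). Galectins are a family of close relatives, and how reads shared between copies were counted is not given. Library 19 held the lowest value for LGALS15, at 1293 RPKM, where the day 12 mean was 2270.4 RPKM.

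The protease inhibitor CST6 (cystatin E/M) had 278, 174, 630.0 and 1226 RPKM on day 20, against 1426, 719, 807 and 2053 RPKM on day 16 (log2 change -1.38, SE 0.62, adjusted p 0.52). Its relative CST3 (cystatin C, feature ENSOARG00000006202) had 582, 82.9, 855 and 2006 RPKM on day 20, against 1677, 639, 1159.6 and 2792 RPKM on day 16 (log2 change -1.34, SE 0.73, adjusted p 0.63). In both, library 19 was the lowest of the 8 and library 23 lay within the day 16 range. HSD11B1, which regenerates cortisol from cortisone, had 65.7, 5.74, 71.2 and 90.3 RPKM on day 20, against 289, 105, 125 and 45.8 RPKM on day 16 (adjusted p 0.709), and PTGS2, the inducible enzyme of prostaglandin synthesis, had 65.9, 175, 263 and 124 RPKM on day 20, against 326, 119, 75.5 and 41.2 RPKM on day 16 (adjusted p 0.976). The days overlapped in both.

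The glucose transporter SLC2A1 (GLUT1) had 14.4, 60.9, 40.4 and 118 RPKM on day 20, against 215, 137, 145 and 198 RPKM on day 16. It was lower in every day 20 library than in any day 16 library and was not called (log2 change -1.88, SE 0.55, adjusted p 0.16). IGFBP1, a binder of insulin-like growth factors that has been used as a marker of elongation, had 3.32, 177, 14.8 and 28.7 RPKM on day 20, against 289.5, 105, 75.8 and 78.3 RPKM on day 16. Libraries 17, 21 and 23 lay below all day 16 libraries and library 19 above 3 of them, with adjusted p 0.466 with all libraries and 0.109 without library 19. FST (follistatin, which binds activin) had 0.06, 0.35, 23.1 and 26.1 RPKM on day 20, against 247, 16.5, 19.2 and 13.1 RPKM on day 16. Libraries 17 and 19 were near 0, libraries 21 and 23 within the day 16 range, and library 25 far above the rest. The sodium-glucose carrier SLC5A1 had 0, 4.34, 0.04 and 5.31 RPKM on day 20, against 34.2, 4.43, 6.50 and 1.46 RPKM on day 16 and the imino acid carrier SLC36A2 had 46.5, 0, 107 and 173 RPKM on day 20, against 81.3, 73.7, 106 and 141 RPKM on day 16, both with overlap and with adjusted p-values of 0.737 for SLC5A1 and 0.699 for SLC36A2.

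**Figure D4:**
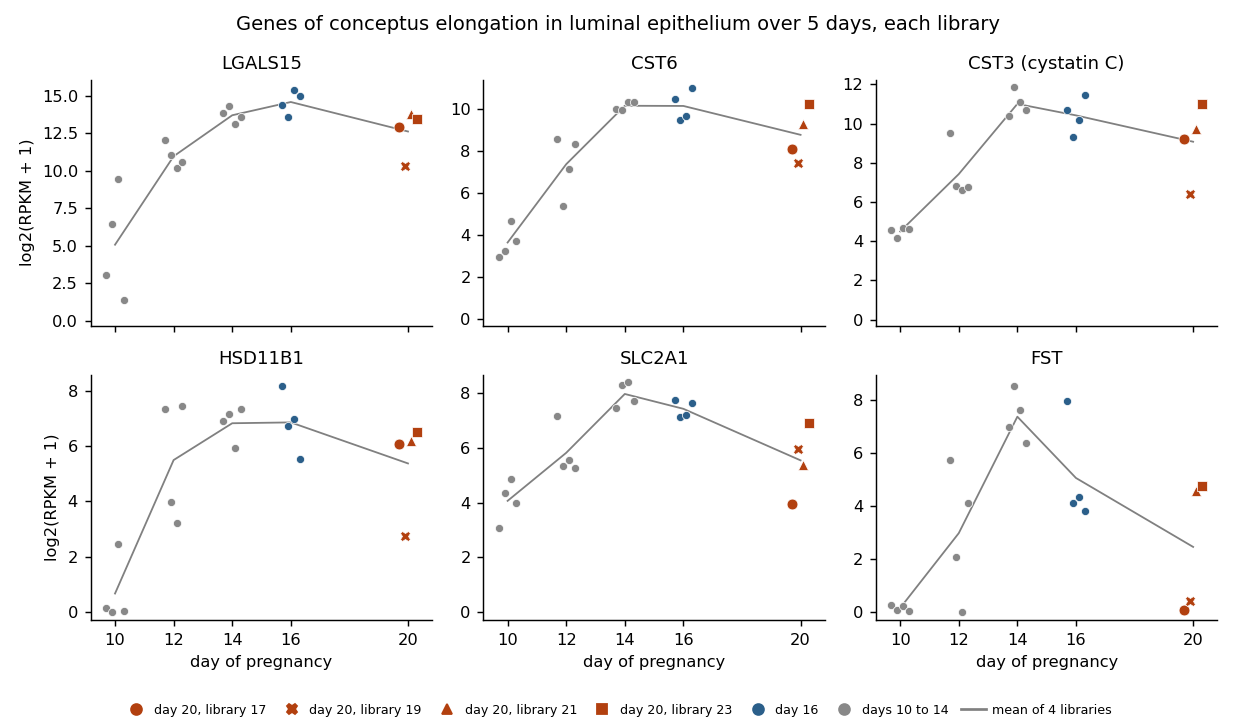
Level of 6 genes of conceptus elongation in LE as log2(RPKM + 1) (vertical axes) by day of pregnancy (horizontal axes), 1 point per library and a grey line through the mean of 4 libraries. The mean is highest on day 14 or day 16 for each gene, and on day 20 library 19 is the lowest point in 4 of the 6 panels.

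Classical interferon-stimulated genes gave no call. Of 57 listed, 45 were tested by limma, and limma, edgeR and DESeq2 each called 0 with all libraries. In limma, 0 had an unadjusted p under 0.05. Their median log2 change was 0.17 with all libraries and -0.13 without library 19, beside -0.03 and -0.044 over all genes. The antiviral GTPase MX1 had 85.3, 88.3, 76.5 and 178 RPKM on day 20, against 95.5, 62.5, 87.1 and 85.3 RPKM on day 16, and RSAD2 (viperin) had 3.96, 5.21, 4.61 and 13.3 RPKM on day 20, against 7.75, 6.06, 4.89 and 8.03 RPKM on day 16. IFI6 had 123, 1438, 131 and 1233 RPKM on day 20, against 909, 92.2, 412 and 752 RPKM on day 16, and ISG17, the ubiquitin-like modifier also known as ISG15, had 7.05, 78.4, 1.61 and 20.20 RPKM on day 20, against 10.7, 9.12, 20.9 and 22.2 RPKM on day 16. Values of IFI6 were high in libraries 19 and 23 and low in libraries 17 and 21, and the days overlapped. These p-values do not show that the levels were alike.

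Prostaglandin and lipid mediator genes gave 0 calls by limma among 15 tested, with 2 at an unadjusted p under 0.05, both lower. PLA2G7, which inactivates platelet-activating factor, had 6.32, 5.31, 13.2 and 17.7 RPKM on day 20, against 39.3, 98.4, 77.0 and 83.3 RPKM on day 16. All day 20 libraries were lower than all day 16 libraries (log2 change -2.77, SE 0.69, adjusted p 0.0951), and DESeq2 called it lower. The prostaglandin E synthase PTGES had 6.12, 0, 0.24 and 4.03 RPKM on day 20, against 4.33, 3.15, 15.9 and 45.1 RPKM on day 16, with overlap and an adjusted p of 0.372.

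Carriers of citrate and other organic acids gave calls in both directions without library 19. Of 15 carriers of glucose and organic acids, 1 fell (SLC13A5) and 0 rose with all libraries, and the median log2 change was -0.54. Without library 19, SLC13A2, a carrier of dicarboxylates and citrate, also rose, and it had 5.36, 0, 1.54 and 11.6 RPKM on day 20, against 0.10, 1.27, 0.17 and 2.30 RPKM on day 16 (log2 change 1.74, SE 0.42, adjusted p 0.0409, against 0.53 with all libraries). SLC16A13, a monocarboxylate carrier, had 5.87, 11.0, 17.6 and 5.52 RPKM on day 20, against 2.48, 0.95, 0.41 and 0.62 RPKM on day 16, and all day 20 libraries lay above all day 16 libraries (adjusted p 0.0986), and DESeq2 called it higher. SMCT1, the sodium-coupled monocarboxylate carrier, was not in the list of glucose and organic acid carriers. It had 19.9, 0.34, 33.7 and 49.1 RPKM on day 20, against 1.53, 1.91, 1.31 and 2.12 RPKM on day 16. SMCT1 rose by 3.62 without library 19 (SE 0.57, adjusted p 0.00132, against 0.226 with all libraries).

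Of 21 amino acid and peptide carriers, limma called 0 with all libraries, and the unadjusted p was under 0.05 for 2. DESeq2 called 1 of 35 and edgeR 0 of 28. Without library 19, SLC7A2, a carrier of arginine and other cationic amino acids, rose by 2.46 (SE 0.52, adjusted p 0.0153). It had 24.8, 0.90, 78.6 and 52.3 RPKM on day 20, against 5.28, 13.3, 7.63 and 6.49 RPKM on day 16, so that the 3 other day 20 libraries were above all day 16 libraries and library 19 was below all of these. SLC6A14, a broad amino acid carrier, had 0.45, 0, 11.4 and 6.14 RPKM on day 20, against 0, 0, 0 and 0 RPKM on day 16 and was too low for the limma fit. DESeq2 called it higher.

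Among 20 ion and water channels and pumps tested by limma 0 were called with all libraries and 0 without library 19. The unadjusted p was under 0.05 for 2 with higher and 1 with lower values, in both cases. The single gene that edgeR called with all libraries was the sodium bicarbonate cotransporter SLC4A4, which had 2.40, 0.30, 7.46 and 6.27 RPKM on day 20, against 0.01, 0.01, 0.04 and 0.01 RPKM on day 16. All day 20 libraries lay above all day 16 libraries, and DESeq2 called it too, with 2 other genes of the list. Other pumps and channels, outside that list, were called without library 19. The mitochondrial calcium uniporter MCU had 24.9, 7.60, 39.8 and 42.2 RPKM on day 20, against 3.97, 8.22, 8.88 and 4.55 RPKM on day 16, and ATP12A, the non-gastric hydrogen-potassium pump, had 8.47, 0, 29.6 and 36.5 RPKM on day 20, against 1.10, 4.76, 4.96 and 3.18 RPKM on day 16. In both, libraries 17, 21 and 23 lay above day 16 and library 19 did not. Without library 19 MCU rose by 2.34 (SE 0.51, adjusted p 0.0191) and ATP12A by 2.41 (SE 0.46, adjusted p 0.00622). ATP6V1C2, a subunit of the proton pump of vesicles, had 49.9, 0.89, 45.2 and 72.4 RPKM on day 20, against 0.07, 5.27, 2.33 and 2.23 RPKM on day 16 and rose by 4.26 without library 19 (SE 0.53, adjusted p 0.000169).

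Among genes of defence and protease control, MMP7 and SERPINE2 were called by limma without library 19. Of 21 antimicrobial and protease inhibitor genes tested by limma, 0 were called with all libraries, while edgeR called 0 of 25 and DESeq2 1 of 34. The unadjusted limma p was under 0.05 for 8, with 4 in each direction, beside 8.96% of all genes tested. MMP7 (matrilysin), an epithelial metalloproteinase, had 0.09, 175, 2.17 and 7.49 RPKM on day 20, against 96.8, 186, 106 and 139 RPKM on day 16. Library 19 lay within the day 16 range, the other day 20 libraries at 7.49 RPKM or less, and the change was -3.92 with all libraries (adjusted p 0.156) and -5.38 without library 19 (adjusted p 0.0027). With all libraries, array weights also called MMP7 (adjusted p 0.0186). SERPINE2 (protease nexin), which inhibits thrombin and plasminogen activators, had 128, 23.0, 226 and 431 RPKM on day 20, against 4.52, 32.6, 4.40 and 12.0 RPKM on day 16 and rose by 4.45 without library 19 (SE 1.00, adjusted p 0.025, against 0.132).

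Outside the list, F3 (tissue factor, which starts the clotting cascade) had 25.1, 5.77, 47.7 and 51.0 RPKM on day 20, against 4.45, 2.00, 3.11 and 2.56 RPKM on day 16, and the matrix protease ADAMTS1 had 23.5, 13.6, 44.3 and 55.4 RPKM on day 20, against 3.86, 5.79, 5.97 and 2.28 RPKM on day 16. Every day 20 library was above every day 16 library in both genes, with adjusted p-values of 0.131 and 0.0875 with all libraries and 0.0212 and 0.0243 without library 19. The trypsin inhibitor SPINK7 had 0, 0, 0.15 and 1.22 RPKM on day 20, against 293, 41.6, 3.74 and 3.53 RPKM on day 16, without overlap but with a wide spread within day 16, and it was not called (adjusted p 0.136). The protease annotated PRO had 3.64, 351, 6.85 and 1.79 RPKM on day 20, against 266, 75.5, 112 and 32.6 RPKM on day 16, and it fell by 4.33 without library 19 (SE 0.66, adjusted p 0.000907).

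Cell surface and junction genes gave no limma call with all libraries. Of 25 genes of adhesion, mucins and integrins limma called 0, and its unadjusted p was under 0.05 for 3, all lower. With all libraries edgeR called 0 of 28 and DESeq2 0 of 34. The galectin LGALS3 had 3.65, 1.77, 2.00 and 10.7 RPKM on day 20, against 37.4, 13.9, 21.8 and 15.4 RPKM on day 16, and the fibronectin receptor subunit ITGA5 had 0.89, 1.2, 0.42 and 1.78 RPKM on day 20, against 9.51, 2.46, 3.42 and 3.83 RPKM on day 16. In both genes the highest day 20 library lay below the lowest day 16 library, with adjusted p-values of 0.235 and 0.316. ITGAV, the alpha V integrin subunit that binds osteopontin, had 23.4, 47.4, 29.9 and 25.3 RPKM on day 20, against 48.1, 39.04, 36.1 and 26.6 RPKM on day 16, and the mucin MUC1, a surface glycoprotein held to hinder adhesion, had 7.87, 6.35, 23.0 and 15.5 RPKM on day 20, against 10.7, 2.85, 3.92 and 4.83 RPKM on day 16, both with overlap.

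Of 26 junction and polarity genes, limma called 0 with all libraries, and its unadjusted p was under 0.05 for 3. With all libraries edgeR called 0 of 28 and DESeq2 1 of 39. CLDN8 (claudin 8, a sealing protein of tight junctions) had 6.27, 0.11, 5.84 and 5.97 RPKM on day 20, against 0, 0, 0 and 0.07 RPKM on day 16. Libraries 17, 21 and 23 were close to each other and library 19 was near the day 16 level. It rose by 2.79 without library 19 (SE 0.48, adjusted p 0.0024, against 0.108). The desmosomal plaque gene PKP2 had 7.29, 11.3, 8.49 and 5.63 RPKM on day 20, against 0.69, 1.79, 1.84 and 1.17 RPKM on day 16 with no overlap (adjusted p 0.16). CDH1 (E-cadherin) had 60.8, 22.0, 153 and 218 RPKM on day 20, against 38.2, 33.9, 34.6 and 43.2 RPKM on day 16, higher in libraries 17, 21 and 23 than in any day 16 library and lowest of all in library 19.

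Cell cycle genes split the day 20 libraries. Their summed level over 46 genes was 48.5, 70.9, 446 and 352 RPKM on day 20, against 49.3 to 59.6 RPKM in the 4 day 16 libraries. Libraries 21 and 23 held 39 and 40 of the 46 genes at 1 RPKM or more, libraries 17 and 19 held 17 and 12, and day 16 libraries held 11 to 13. The proliferation marker MKI67 had 0.18, 0, 9.39 and 13.1 RPKM on day 20, against 0.01, 0.04, 0.01 and 0.18 RPKM on day 16, and it was below the limma filter. Of 19 genes tested limma called 0 with all libraries, with 6 at an unadjusted p under 0.05, all higher. Over all genes tested 3.79% were higher at that p. DESeq2 called 13 of 46, all higher, beside 0.757% of all its genes called higher, and edgeR called 0 of 32. Day 20 conceptuses summed to 1125.3 to 1336 RPKM over the 46 genes, and the part of conceptus cells in these values was not tested. Without library 19, limma called HMMR and NUSAP1, both spindle proteins. HMMR had 3.17, 0.46, 10.5 and 8.05 RPKM on day 20, against 0.50, 1.23, 1.14 and 1.67 RPKM on day 16 and NUSAP1 had 1.23, 0.70, 9.88 and 3.45 RPKM on day 20, against 0.17, 0.49, 0.48 and 0.27 RPKM on day 16 (adjusted p without library 19 0.0371 and 0.0246, against 0.399 and 0.156).

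Of 12 chemokine and cytokine genes, limma called 0 with all libraries and 1, IL6, without library 19. With all libraries the unadjusted limma p was under 0.05 for 3, edgeR called 0 of 14 and DESeq2 called 1 of 30, IL33. IL6, a cytokine, had 9.01, 0, 35.2 and 19.1 RPKM on day 20, against 0.06, 0.57, 0.09 and 1.00 RPKM on day 16, and it rose by 3.81 without library 19 (SE 0.51, adjusted p 0.000206, against 0.108 with all libraries). Outside that list, OSMR, the receptor subunit for oncostatin M, a cytokine of the same family, had 20.5, 9.27, 48.1 and 33.7 RPKM on day 20, against 6.06, 4.07, 3.73 and 4.35 RPKM on day 16, without overlap (adjusted p 0.0416 without library 19, against 0.144). CYR61 and CTGF belong to the immediate early list and encode matrix-associated proteins of one family. Of 17 genes of that list, limma called 0 with all libraries and 1, CYR61, without library 19. CYR61 had 2.95, 1.97, 6.73 and 17.3 RPKM on day 20, against 0, 0.71, 0.61 and 2.70 RPKM on day 16 and rose by 2.20 without library 19 (SE 0.43, adjusted p 0.00803). CTGF had 22.4, 0, 6.21 and 16.3 RPKM on day 20, against 151, 69.8, 56.6 and 116 RPKM on day 16, lower in every day 20 library but not called (adjusted p 0.193). The monocyte attractant CCL2 had 1.66, 0.45, 2.76 and 6.93 RPKM on day 20, against 3.01, 13.8, 21.2 and 23.9 RPKM on day 16 (adjusted p 0.294).

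Of 27 glycolysis and hypoxia genes and 38 cholesterol and fatty acid genes tested, limma called 0 in each list, with and without library 19. With all libraries the unadjusted limma p was under 0.05 for 3 and 4 of them. In the same order, edgeR called 0 of 32 and 0 of 41, and DESeq2 called 0 of 35 and 2 of 45 (DGAT2 and SLC27A2, both higher). Outside these lists, the metallothionein MT2 had 15.9, 17.2, 34.5 and 33.5 RPKM on day 20, against 1.47, 0, 3.42 and 3.38 RPKM on day 16 and MT1A had 0.68, 14.8, 21.3 and 21.0 RPKM on day 20, against 0.22, 0, 0.60 and 0.43 RPKM on day 16. MT2 rose by 3.38 without library 19 (SE 0.81, adjusted p 0.0359, against 0.0605), and MT1A was not called, though metallothionein copies may share reads. DGAT2, which completes triglyceride synthesis, had 10.8, 77.4, 5.13 and 12.5 RPKM on day 20, against 1.87, 0.35, 2.12 and 4.84 RPKM on day 16, with library 19 the highest. PSPH and PHGDH, both of the pathway that makes serine, had lower values in libraries 17, 21 and 23 than in any day 16 library. PSPH had 1.2, 7.10, 12.1 and 4.09 RPKM on day 20, against 41.8, 35.4, 40.8 and 23.4 RPKM on day 16 (adjusted p 0.0951) and PHGDH had 5.02, 50.6, 1.22 and 9.62 RPKM on day 20, against 56.0, 47.1, 25.1 and 37.9 RPKM on day 16, with a fall of 2.97 without library 19 (adjusted p 0.0288). The selenium carrier SEPP1 had 107, 246, 7.68 and 126 RPKM on day 20, against 695, 279, 457 and 649 RPKM on day 16, lower in every day 20 library and not called (adjusted p 0.316).

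The 2 largest rises without library 19 were of C11orf34 and TCN1, genes that stayed at 2.10 RPKM or less in all LE libraries of days 10 to 14. C11orf34, described in the deposited table as placenta expressed transcript 1, had 454, 0.62, 1639 and 5528 RPKM on day 20, against 2.22, 76.8, 60.8 and 136 RPKM on day 16. Library 19 was the only day 20 library below the day 16 range. It rose by 5.39 without library 19 (SE 0.89, adjusted p 0.00167), and with all libraries the adjusted p was 0.599. The day 20 conceptus libraries held 1711 to 4336 RPKM of it. TCN1, a binder of vitamin B12, had 361, 0.05, 195 and 80.8 RPKM on day 20, against 10.1, 10.0, 2.62 and 0 RPKM on day 16 and rose by 5.29 (SE 0.69, adjusted p 0.000194, against 0.244), with 2.82 to 6.86 RPKM in the conceptus. GATM, which makes the precursor of creatine, had 174, 0.38, 648 and 739 RPKM on day 20, against 35.7, 42.4, 30.2 and 65.5 RPKM on day 16 and rose by 3.36 (SE 0.79, adjusted p 0.0353, against 0.891).

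CYP1A1, a cytochrome P450 induced through the aryl hydrocarbon receptor, had 43.3, 0, 29.6 and 41.3 RPKM on day 20, against 0, 0, 2.16 and 5.84 RPKM on day 16 and rose by 4.16 without library 19 (SE 0.62, adjusted p 0.000732, against 0.193). The secretin receptor SCTR had 24.3, 0.06, 18.4 and 28.2 RPKM on day 20, against 0.03, 1.11, 0.74 and 1.80 RPKM on day 16 and rose by 3.75 (SE 0.40, adjusted p 2.23e-05, against 0.108). The mucin-type glycoprotein PDPN (podoplanin) had 7.07, 0.07, 24.4 and 24.5 RPKM on day 20, against 0.16, 0, 0.90 and 0 RPKM on day 16 and rose by 3.83 (SE 0.62, adjusted p 0.00138, against 0.12). In each of these genes libraries 17, 21 and 23 were high and library 19 was at or near 0. The other way round, MGP (matrix Gla protein, an inhibitor of calcification) had 43.7, 3498, 14.8 and 144 RPKM on day 20, against 536, 383, 419 and 153 RPKM on day 16, with means of 2360.2 RPKM on day 10 and 2457 RPKM on day 12, and fell by 2.86 without library 19 (SE 0.56, adjusted p 0.00766, against 0.789).

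Genes of the attached conceptus were looked for in the LE libraries. The 22 trophoblast genes in the table summed to 5.59, 8.56, 14.3 and 22.7 RPKM in the day 20 LE libraries, against 7.67 to 12.5 RPKM in day 16 LE libraries, and to 562 to 784 RPKM in day 20 conceptuses. Between 1 and 4 of the 22 genes reached 1 RPKM in a day 20 LE library, against 1 or 2 in a day 16 library, and 2 were at 0 in all 8. PAG4, a pregnancy-associated glycoprotein made by binucleate trophoblast cells, had 0.01, 0.01, 4.89 and 1.13 RPKM on day 20, against 0.01, 0.01, 0.01 and 0.01 RPKM on day 16, and it was the 1 trophoblast gene that DESeq2 called higher. It was above 0.01 RPKM in libraries 21 and 23 alone, the libraries with the high cell cycle sums, and held 18.5 to 57.1 RPKM in day 20 conceptuses. In 23 of the 79 genes that rose without library 19, the lowest day 20 conceptus value exceeded the highest day 20 LE value. The same count was not made over all genes tested, so the 23 cannot be read as an excess. Whether conceptus RNA has a part in any of these rises was not tested.

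Markers of other uterine cells varied between libraries of the same day. Stroma genes (17) summed to 113, 343, 59.1 and 316 RPKM on day 20, against 52.4 to 146.8 RPKM on day 16, and leukocyte genes (25) to 26.5 to 91.8 RPKM, against 36.7 to 61.2 RPKM. Gland products (13 genes) summed to 283 to 4266 RPKM on day 20 and 1743 to 6322 RPKM on day 16. In all libraries but 23, more of this came from S100G than from the other members together. S100G, a calcium-binding protein, had 4189.9, 155, 3711 and 211 RPKM on day 20, against 1568, 3784, 2846 and 6271 RPKM on day 16. The glandular serpin SERPINA14 had 0.94, 0, 39.6 and 379 RPKM on day 20, against 2.33, 3.40, 4.13 and 2.17 RPKM on day 16, high in libraries 21 and 23 alone, against means of 2326 ± 1781 RPKM on day 20 and 40.96 ± 12.1 RPKM on day 16 in GE (SD, n = 4). Of the cell type lists, limma called 0 members with all libraries, and 7 members had an unadjusted p under 0.05. DESeq2 called 4 members (GRP and PAG4 higher, APOB and CUBN lower), and edgeR 0. The part of these cells in the results was not tested.

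The hormone receptors named next were not called by limma. ESR1, the estrogen receptor, had 11.7, 27.1, 3.98 and 5.65 RPKM on day 20, against 14.0, 12.8, 8.72 and 3.29 RPKM on day 16, and PGR, the progesterone receptor, had 0.90, 2.61, 0.18 and 0.30 RPKM on day 20, against 0.26, 1.40, 0.37 and 0.69 RPKM on day 16. The oxytocin receptor OXTR had 1.76, 0, 0.63 and 0.56 RPKM on day 20, against 0, 0, 0.29 and 0.04 RPKM on day 16 and was below the filter. PRLR, the prolactin receptor that also binds placental lactogen, had 0.16, 0.80, 0 and 2.52 RPKM on day 20, against 7.10, 2.03, 3.16 and 8.53 RPKM on day 16 (log2 change -1.76, SE 0.43, adjusted p 0.0875).

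The change of LE was set against the change of GE over the same days in a fit of all 40 LE and GE libraries. In GE, 31 of 10049 genes (0.308%) were called between day 20 and day 16. The difference of changes passed for 52 of 11131 genes (0.467%), 26 higher in LE and 26 lower (0.234% each), and for 89 of 11109 (0.801%) without library 19. The even split depends on the scaling. With TMM scaling 15 were higher and 27 lower, and the median difference over all genes was 0.001, beside 0.138 as reported. Mitochondrial genes took 0.4 to 3.13% of exon reads in GE libraries of days 16 and 20, less than in LE. Of the 52, 45 were among the 89, and 16 were also among the 24 genes called within LE. The count was 18 without LE library 21, 22 and 24 without the GE day 20 libraries numbered 020 and 022, and 34 without LE library 29, LE library 31 or GE library 30. In GE, 3 of the 4 day 20 libraries were closest to the day 20 mean and 1 to the day 16 mean. The labels do not say which LE and GE libraries came from the same animal.

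CYP26A1 differed between the tissues by 3.84 on the log2 scale (SE 0.75, adjusted p 0.00975), CD55 by -5.14 (SE 1.11, adjusted p 0.0181), and SLC13A5 by -3.23 (SE 0.68, adjusted p 0.0145). In GE both CD55 and SLC13A5 averaged under 1 RPKM on both days. CRYGS differed by -5.44 (SE 1.24, adjusted p 0.029), a call lost without library 19 (adjusted p 0.0572). CEP55, which completes cell division, differed by 4.21 (SE 0.65, adjusted p 0.000395). It had 3.58, 0.39, 9.14 and 9.55 RPKM on day 20, against 0.03, 1.62, 0.63 and 0 RPKM on day 16 in LE and averaged 0.60 ± 0.97 RPKM on day 20 and 6.82 ± 2.41 RPKM on day 16 in GE (SD, n = 4). NRM differed by 3.03 (SE 0.50, adjusted p 0.000732) and ME2 by 2.81 (SE 0.58, adjusted p 0.014).

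OST and SEC11C changed in GE and not detectably in LE. OST (osteopontin, an adhesion protein that binds integrins at the surface of the uterus) averaged 413 ± 201 RPKM on day 20 and 5.72 ± 4.79 RPKM on day 16 in GE, while LE had 0, 4.10, 0.23 and 12.5 RPKM on day 20, against 8.61, 0.59, 3.80 and 2.18 RPKM on day 16, and the changes differed by -6.46 (SE 1.00, adjusted p 0.000395). SEC11C, a subunit of the signal peptidase, averaged 190.1 ± 75.6 RPKM on day 20 and 5.41 ± 3.13 RPKM on day 16 in GE, and LE had 28.1, 16.8, 30.8 and 47.2 RPKM on day 20, against 49.6, 37.6, 31.5 and 32.7 RPKM on day 16 (difference -5.27, SE 1.09, adjusted p 0.0138). PRLR and PLA2G7 had lower values on day 20 in LE and higher ones in GE, and neither was called within GE. PRLR differed by -2.79 (SE 0.66, adjusted p 0.0357), with GE means of 111 ± 28.8 RPKM on day 20 and 59.3 ± 32.0 RPKM on day 16. PLA2G7 differed by -4.46 (SE 1.09, adjusted p 0.0476), with GE means of 11.9 ± 10.5 RPKM on day 20 and 2.69 ± 2.56 RPKM on day 16.

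**Figure D5:**
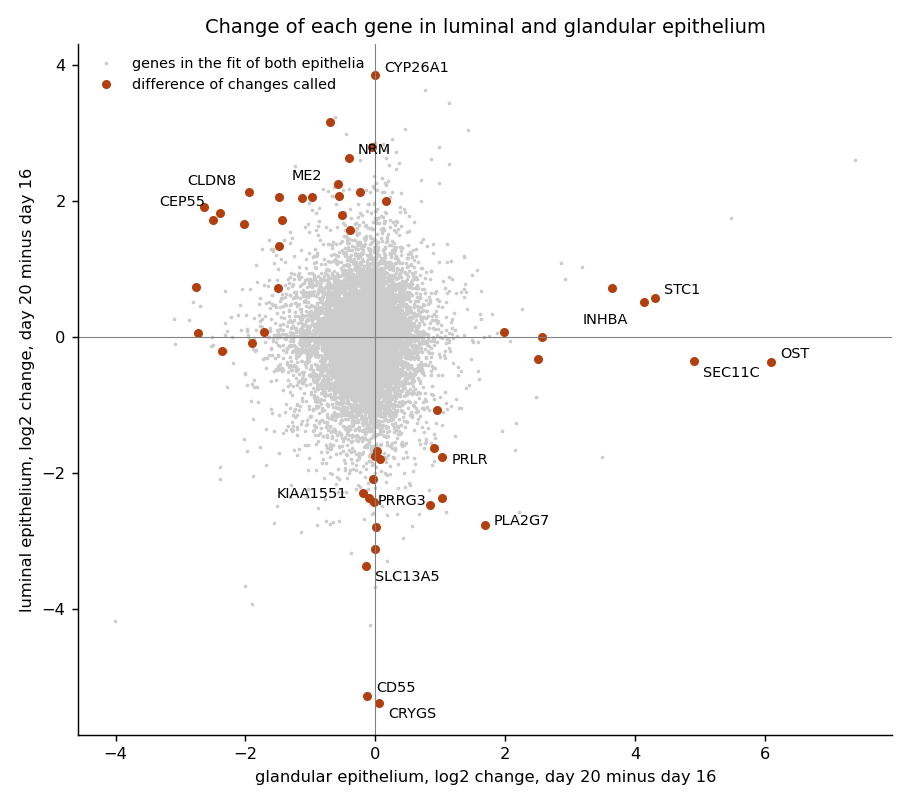
Log2 change from day 16 to day 20 in GE (horizontal axis) and in LE (vertical axis) for 11131 genes (grey), with the 52 genes whose changes differed in orange. CYP26A1, CD55, CRYGS and SLC13A5 lie near 0 on the GE axis and far from 0 on the LE axis, while OST and SEC11C lie near 0 on the LE axis and far to the right on the GE axis.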

How the data were processed

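Levels of 8 LE libraries were compared, 4 of day 20 and 4 of day 16, with the other LE, GE and conceptus libraries as background. The authors deposited RPKM, mapped to the sheep build Oar_v3.1 per the submitters' processing notes. For the aligner and the counting rule, the sources used here give no name. The authors also deposited a signed fold score and an FDR p-value from an EDGE test, per the file headers, and conceptus read counts. Of 25197 features, 23 without an identifier were left out. The 10 per-sample columns that were assigned to no labelled sample were not used, and no column was assigned to the day 12 conceptuses.

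log2(RPKM + 1) of genes at 1 RPKM or more in at least 4 of 20 LE libraries was fitted with limma 3.58.1 (R 4.3.3, trended variance), all 5 days in one fit, with Benjamini-Hochberg adjustment over all genes tested. A fold change on this scale understates the change of low genes. The change of LE minus that of GE came from one fit of 40 libraries. RPKM steps gave whole reads (within 0.1 read, 100.0% of low values) for 18942 features whose exon length could be recovered from the deposited conceptus read counts. edgeR 4.0.16 and DESeq2 1.42.0 were run on those reads, and the depths given are those the steps imply. Every test script was tested on simulated data.

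Genes named are those called, the 15 largest non-overlapping changes in each direction at 10 RPKM or more, up to 4 per list with the smallest p, a core set, the 10 smallest p-values of the LE against GE difference, and abundant cell type markers. Members, lists and core genes were chosen with earlier results of these data known. No sequence or coordinate is given. Intervals for single counts are not given, since PCR and amplification copies are not independent molecules. Some genes are not reported here.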

Additional observations from a re-analysis of the deposited data

Results flagged for a closer look

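The named genes made 252 gene-by-day groups. Groups in which no library reached 1 RPKM, or all libraries had the same value, were not tested. In 16 of the groups tested, the highest or lowest of 4 libraries stood apart by Dixon's test at 95%. The value given for each is the gap to the next library as a share of the group's range. Chance gives this in about 1 in 20 groups tested, and the number tested was not counted. Of the 16, 11 were on day 20 and 5 on day 16, and library 19 was the one that stood apart in 6. It was the lowest for SLC25A24 (0.876), HSD11B1 (0.88), CLDN8 (0.968), CYP1A1 (0.903), SCTR (0.877) and ATP6V1C2 (0.874). CLDN8, CYP1A1, SCTR and ATP6V1C2 rose without library 19 and were not called with all libraries. Where a gene was named for such a call, the low place of library 19 is partly set by that choice. The 6 is therefore not read against chance.

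Library 17 was the highest on day 20 for ENSOARG00000011663 (0.991) and the lowest for MT1A (0.866). Library 21 was the highest for ABHD6 (0.854), and library 23 for MX1 (0.83) and INHBA (0.92). On day 16, library 25 was the highest for RDH10 (0.952), FST (0.876) and TP53INP1 (0.922), library 29 for NRM (0.906), and library 31 for STC1 (0.86). TP53INP1, a stress-response gene, had 0.88, 22.9, 1.91 and 3.62 RPKM on day 20, against 31.3, 22.3, 22.1 and 22.8 RPKM on day 16.

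The change between the days differed between LE and GE by limma for 26 of the named genes. Among those called lower within LE, the difference on the log2 scale (LE minus GE) was -5.44 for CRYGS, -5.14 for CD55, -3.23 for SLC13A5, -2.11 for KIAA1551, -2.27 for PRRG3 and -1.71 for CALB2. It was -3.32 for ENSOARG00000005764, -2.05 for ENSOARG00000005880, -3.10 for ENSOARG00000011663 and -2.81 for ENSOARG00000000935. Among those called higher within LE, it was 3.84 for CYP26A1, 2.81 for ME2, 3.03 for NRM, 2.37 for ABCG1, 1.83 for SLC25A24 and 3.86 for ENSOARG00000007615.

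Genes not called within LE with all libraries differed as well. The difference was -4.46 for PLA2G7, -2.79 for PRLR, -6.46 for OST, -5.27 for SEC11C, 4.07 for CLDN8 and 4.21 for CEP55. It was -3.62 for INHBA, a subunit of activin, which averaged 61.2 ± 19.0 RPKM on day 20 and 4.30 ± 5.43 RPKM on day 16 in GE and had 0, 0.11, 0.03 and 2.71 RPKM on day 20, against 0, 0, 0 and 0.03 RPKM on day 16 in LE. It was -3.74 for STC1, a secreted glycoprotein of the glands, which averaged 60.3 ± 60.1 RPKM on day 20 and 1.12 ± 1.02 RPKM on day 16 in GE and had 0.72, 0, 0.17 and 7.73 RPKM on day 20, against 0, 0, 0.17 and 2.07 RPKM on day 16 in LE. It was -1.92 for the serotonin receptor HTR4 and 1.78 for GABRP, a subunit of the GABA receptor. These differences were tested, and their causes were not.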

How the results depend on the processing

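All 24 genes called with all libraries kept their direction in the 27 other settings, wherever a setting tested them, and 15 were called in at least as many of the settings as not. Of the 24, 3 (CD55, PRRG3 and SLC13A5) were still called with libraries 21 and 23 both left out. The number of calls depended on the setting more than on the genes' directions. It was 24 as reported, 5 with a pseudocount of 0.1, 4 with a filter of 5 RPKM, 5 with upper quartile scaling, 13 with days 16 and 20 fitted alone and 139 with array weights. It was 1 with edgeR and 194 with DESeq2. With libraries 21 and 23 left out it was 8, and with libraries 17 and 19 left out 142. Leaving out 1 library gave 9 (library 21) to 123 (library 19). Without library 19 (settings added after seeing the data), it was 37 with edgeR, 339 with DESeq2, 115 with TMM scaling, 55 with upper quartile scaling, 55 with a pseudocount of 0.1 and 154 without mitochondrial genes. The cause of these shifts was not tested, apart from the fewer genes or samples in some.

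Higher genes made up 41.7% of the calls as reported, against 64.2% without library 19, 69.7% without mitochondrial genes, 20.0% with upper quartile scaling, 20.0% with a pseudocount of 0.1 and 72.7% with DESeq2. Leaving out mitochondrial genes moved the median log2 change of all genes to 0.248, beside -0.03, so directions are relative to the scaling used. The LE against GE count was 52 as reported, 42 with TMM scaling, 15 with a pseudocount of 0.1 and 32 without libraries 21 and 23. With 1 library left out it was 18 (without LE library 21) to 89 (without LE library 19). No paired analysis was possible because the day 20 and day 16 groups share no replicate numbers. Taking LE and GE libraries of neighbouring numbers as 1 animal, which the labels do not state, gave 53. With 4 libraries a day and the spread of day 20, smaller changes could not be detected.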

Other observations

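Other genes of defence, lipid use and growth control gave no limma call with all libraries. TLR4, the receptor for bacterial lipopolysaccharide, had 7.08, 5.68, 14.2 and 14.9 RPKM on day 20, against 0.58, 3.13, 2.54 and 1.53 RPKM on day 16, and CPT1A, which brings fatty acids to mitochondrial oxidation, had 2.01, 7.76, 2.91 and 5.96 RPKM on day 20, against 16.6, 14.3, 10.3 and 12.3 RPKM on day 16. FGF9, a growth factor, had 7.81, 1.30, 2.20 and 10.3 RPKM on day 20, against 22.7, 10.8, 31.5 and 24.5 RPKM on day 16. Their adjusted p-values by limma were 0.115 for TLR4, 0.416 for CPT1A and 0.156 for FGF9. TIMP3, an inhibitor of matrix metalloproteinases, had 30.8, 7.44, 36.1 and 83.3 RPKM on day 20, against 3.01, 11.6, 8.74 and 15.8 RPKM on day 16 (adjusted p 0.458 by limma). CYBRD1, an iron reductase of the cell surface, had 27.9, 109, 34.2 and 36.96 RPKM on day 20, against 12.2, 7.34, 19.9 and 21.1 RPKM on day 16 (adjusted p 0.356 by limma). The lysosomal membrane gene GPR137B had 18.0, 4.33, 47.3 and 29.9 RPKM on day 20, against 3.96, 0.58, 1.90 and 1.98 RPKM on day 16, and it rose by 3.41 without library 19 (SE 0.62, adjusted p 0.00444 by limma, against 0.0712 with all libraries).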
